A study of Caenorhabditis elegans with 2 samples.

Results

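The genes described here are 90 of the 19973 nuclear protein-coding genes of Caenorhabditis elegans, chosen by symbol as the cell's machinery for making proteins. They comprise 31 aminoacyl-tRNA synthetases, 32 initiation factors, 8 elongation factors and eIF5A genes, and 19 genes of ribosome biogenesis. The study mapped MXL-1 by ChIP-seq in whole hermaphrodite young adults of strain OP537, harvested 67 hours after starved L1 larvae were released. The strain carries unc-119(tm4063) and the transgene wgIs537, which expresses MXL-1 with a C-terminal GFP-FLAG tag, and an anti-GFP antibody collected the bound chromatin. Both samples, 2 biological replicates, belong to 1 group with the same strain, stage and antibody, so no comparison between conditions exists. The profile is an average over all tissues of the worm and over the tagged protein of 1 transgenic line.

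MXL-1 is a basic helix-loop-helix leucine zipper protein related to mammalian Max, and it pairs with MDL-1, a relative of the Mad proteins, on the E-box CACGTG. In mammals the Max network includes Myc, which is known for raising the expression of ribosomal RNA, ribosome assembly and translation genes, while Mad proteins act on the same sites as repressors. Translation starts when initiation factors load the small ribosomal subunit and the initiator tRNA onto an mRNA. Synthetases charge each tRNA with its amino acid, elongation factors deliver charged tRNAs and move the ribosome, and nucleolar proteins build the ribosome itself.

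Values come from 4 deposited peak lists on ce11. The thresholded list held 550 nuclear peaks, all also in the pooled list, with signals from 67.7 to 404. The pooled list held 14193 nuclear entries, with signals from 25.6 to 404 and a median of 31.7, and 1039 of the 14200 entries, mitochondrial ones included, had a q value under 0.05. That list is labelled as peaks together with background, so its weaker members are called entries here and need not be bound sites. The lists of replicate 1 and replicate 2 held 20307 and 21874 nuclear entries, with median signals of 16.4 and 16.6. Signal is the authors' value without a stated scale, so it is read only within a list, and rank 1 is the strongest entry. No read totals were used, so depth is unknown. Shares carry 95% intervals from the exact Clopper-Pearson method, which reflect only how many genes or summits were counted. A promoter summit lies from 1000 bp upstream to 200 bp downstream of any protein-coding start of the gene, and a gene body summit lies in the rest of the gene.

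The sequences at the strongest promoter summits of the group are shown to let the entries be read at the level of DNA. Of the 11 strongest such summits, from ears-2 down to nol-10, 8 are printed in order of signal, and those of rars-2, eif-3.I and nol-58 are not. Each runs 5' to 3' in the direction of the member, from the RefSeq genome (WBcel235, ce11), within 100 bp of the pooled summit and without annotated untranslated stretches. Capitals mark CGCGCA or its reverse complement TGCGCG, a 6-mer searched because earlier results of these data had picked it out. It is present in 4 of the 11, all printed here (ears-2, pro-1, eef-1A.2 and nol-10), and the other printed windows hold neither it nor an E-box. Over all promoter summits it lay within 100 bp of 6.62%, and of 7.68% of those above the median signal. The windows lie at IV:390469-390559 on the minus strand for ears-2, II:10542050-10542250 minus for pro-1, V:8031221-8031410 plus for vars-1, II:6968201-6968401 minus for eif-2Bgamma, X:7823281-7823481 plus for eef-1A.2, III:7572425-7572625 plus for lpd-7, IV:15037403-15037603 plus for eef-1B.2 and IV:7580275-7580475 plus for nol-10.
ears-2: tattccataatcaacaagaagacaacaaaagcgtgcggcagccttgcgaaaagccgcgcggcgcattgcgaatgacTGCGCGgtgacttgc
pro-1: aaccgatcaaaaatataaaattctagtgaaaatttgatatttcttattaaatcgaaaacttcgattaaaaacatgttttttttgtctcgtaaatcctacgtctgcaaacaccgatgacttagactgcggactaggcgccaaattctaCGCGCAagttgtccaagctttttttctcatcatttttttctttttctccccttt
vars-1: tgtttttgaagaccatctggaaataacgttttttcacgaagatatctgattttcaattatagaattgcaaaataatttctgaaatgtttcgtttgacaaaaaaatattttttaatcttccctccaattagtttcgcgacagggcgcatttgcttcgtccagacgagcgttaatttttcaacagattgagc
eif-2Bgamma: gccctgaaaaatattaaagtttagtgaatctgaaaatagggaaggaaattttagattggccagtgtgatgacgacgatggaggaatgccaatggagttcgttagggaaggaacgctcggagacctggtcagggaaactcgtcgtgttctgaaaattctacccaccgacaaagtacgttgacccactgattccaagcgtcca
eef-1A.2: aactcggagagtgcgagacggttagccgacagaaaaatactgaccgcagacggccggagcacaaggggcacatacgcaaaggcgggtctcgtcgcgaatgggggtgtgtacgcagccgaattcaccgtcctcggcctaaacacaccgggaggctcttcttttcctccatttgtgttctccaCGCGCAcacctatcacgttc
lpd-7: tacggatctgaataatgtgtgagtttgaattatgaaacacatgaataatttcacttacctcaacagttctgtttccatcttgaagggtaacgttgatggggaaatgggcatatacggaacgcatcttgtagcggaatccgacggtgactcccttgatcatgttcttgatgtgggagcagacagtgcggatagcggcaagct
eef-1B.2: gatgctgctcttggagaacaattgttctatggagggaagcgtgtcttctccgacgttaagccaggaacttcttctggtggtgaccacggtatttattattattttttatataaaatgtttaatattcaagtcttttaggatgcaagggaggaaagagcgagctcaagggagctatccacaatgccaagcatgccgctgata
nol-10: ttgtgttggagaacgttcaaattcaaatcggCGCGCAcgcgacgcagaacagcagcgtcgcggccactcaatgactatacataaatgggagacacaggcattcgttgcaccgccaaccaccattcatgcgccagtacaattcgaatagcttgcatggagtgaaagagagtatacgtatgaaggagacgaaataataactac

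The E-box is its own reverse complement and lay within 100 bp of 4.90% of all promoter summits. In the group it was found that near to 5 of the 58 pooled promoter summits. The windows of 3 of them are printed here, those of ife-1 (III:13343713-13343820, plus), which encodes an eIF4E cap-binding protein, pro-3 (V:19118543-19118730, minus) and toe-1 (II:4424564-4424764, plus), the last 2 from the biogenesis group. Capitals mark CACGTG.
ife-1: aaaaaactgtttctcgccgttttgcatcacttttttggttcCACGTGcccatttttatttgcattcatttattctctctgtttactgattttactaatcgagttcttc
pro-3: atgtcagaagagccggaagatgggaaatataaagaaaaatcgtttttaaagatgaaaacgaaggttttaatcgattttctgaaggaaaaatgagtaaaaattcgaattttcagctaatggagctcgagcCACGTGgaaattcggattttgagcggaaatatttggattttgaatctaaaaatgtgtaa
toe-1: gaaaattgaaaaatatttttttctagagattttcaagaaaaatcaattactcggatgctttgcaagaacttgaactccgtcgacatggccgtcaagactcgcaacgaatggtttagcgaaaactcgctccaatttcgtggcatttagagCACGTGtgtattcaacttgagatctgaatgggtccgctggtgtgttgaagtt

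Of the translation and ribosome genes, 2 had a summit in the thresholded list, too few to set the group apart from genes at large in either direction. A thresholded promoter summit was present at 1 of 90 members (1.11%, 95% interval 0.0281 to 6.04), against 1.06% of all nuclear protein-coding genes. The gene body likewise held a thresholded summit in 1 of 90 (1.11%), against 1.05% of all genes. The promoter was that of the glutamyl-tRNA synthetase gene ears-2, and the gene body that of the phenylalanyl-tRNA synthetase gene fars-1. The promoter count depended on the replicate. As many of the strongest peaks of replicate 2 alone gave 0 of 90 members, against 1.10% of all genes, and of replicate 1 alone 4 of 90 (4.44%), against 1.17%. The gene body count was 2 of 90 (2.22%) with either replicate alone, against 1.08% of all genes for replicate 2 and 1.06% for replicate 1.

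Further down the pooled list the members' share stood above that of all genes at each step. Restricted to entries with q under 0.05, a limit chosen after the data had been seen, 4 of 90 members had a promoter summit (4.44%, 1.22 to 11), against 2.28% of all genes, whose share lies inside that interval. A pooled promoter summit with a summit within 100 bp in both replicates was found at 20 of 90 members (22.2%, 14.1 to 32.2), against 8.60%. Any pooled promoter summit was found at 46 of 90 (51.1%, 40.3 to 61.8), against 23.0%. In replicate 1 alone 52 of 90 members (57.8%, 46.9 to 68.1) had a promoter summit, against 29.8% of all genes. In replicate 2 alone there were 53 of 90 (58.9%, 48.0 to 69.2), against 31.1%. Matching the replicate lists to each other, without the pooled list, left 18 of 90 members (20.0%, 12.3 to 29.8), against 8.43%. Genes are not replicates, and these shares are descriptions without a test.

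Gene bodies of the members likewise held pooled entries more often than those of all genes. With q under 0.05, 4 of 90 members had a gene body summit (4.44%, 1.22 to 11), against 2.00% of all genes, a share inside that interval. Entries matched in both replicates lay in 18 of 90 gene bodies (20.0%, 12.3 to 29.8), against 9.79%, and pooled entries of any kind in 37 of 90 (41.1%, 30.8 to 52.0), against 26.6%. Replicate 1 gave 48 of 90 (53.3%), against 34.7%, and replicate 2 gave 47 of 90 (52.2%), against 37.3%. Members were longer than genes at large, with a median length of 2555 bp against 2027 bp, and per kilobase they held 0.211 pooled gene body summits against 0.119.

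**Figure D1:**
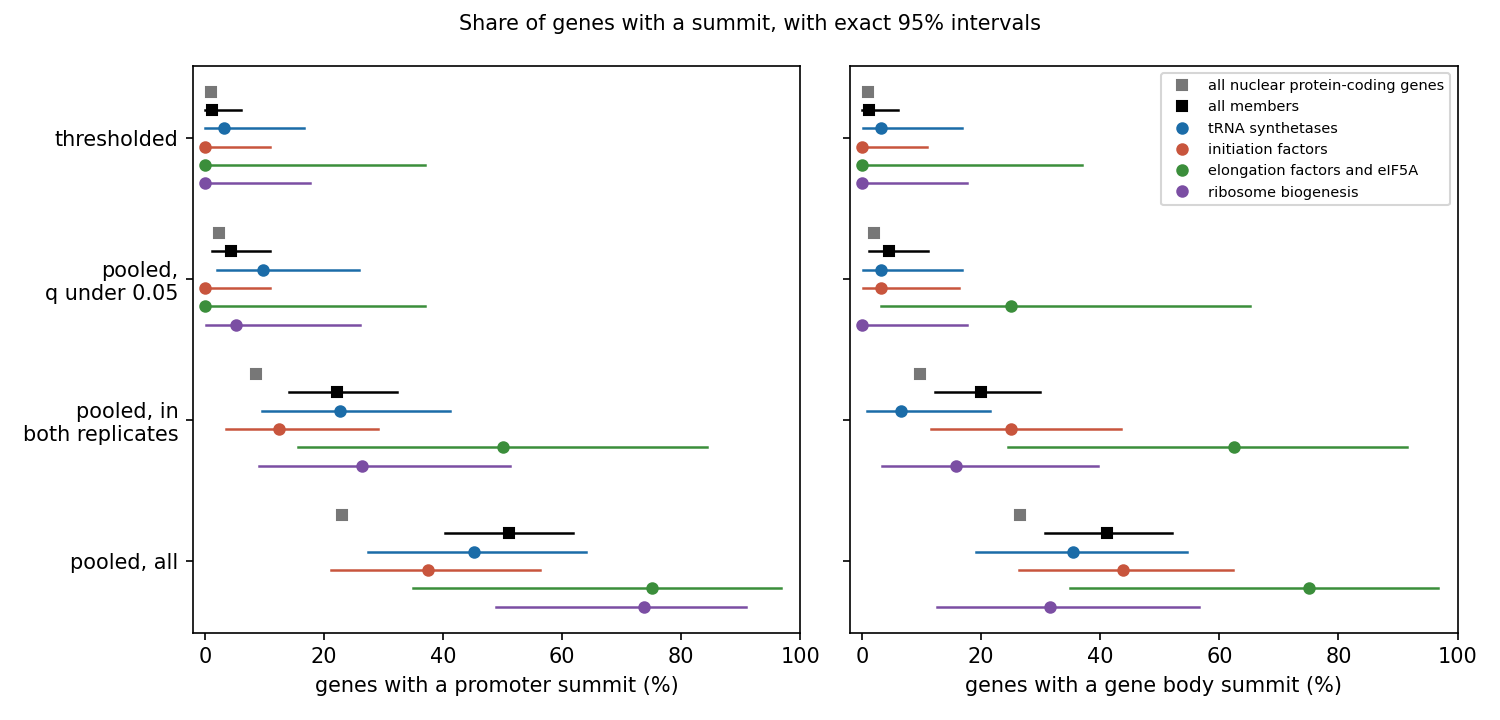
Share of genes with a promoter summit (left) or gene body summit (right) in 4 sets of entries, in percent, for all nuclear protein-coding genes (grey), all 90 members (black) and the 4 roles (colours). Points are shares and lines exact 95% intervals. In the thresholded set members and all genes stand at 1.11% and 1.06% for promoters, with a member interval from 0.0281 to 6.04, and in the full pooled set they stand at 51.1% and 23.0%.

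By role, pooled promoter summits were found at 14 of 31 synthetase genes (45.2%, 27.3 to 64.0), 12 of 32 initiation factor genes (37.5%, 21.1 to 56.3), 6 of 8 elongation factor and eIF5A genes (75.0%, 34.9 to 96.8) and 14 of 19 biogenesis genes (73.7%, 48.8 to 90.9). The intervals of the 4 roles overlap, and the lower bound of the initiation factors falls below the 23.0% of all genes. Elongation and biogenesis genes also had the higher shares in each replicate. Replicate 1 had promoter summits at 8 of 8 elongation and eIF5A genes and 16 of 19 biogenesis genes, and replicate 2 at 6 of 8 and 14 of 19. Initiation factors stood at 16 of 32 in either replicate.

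The neighbouring parts of the pathway were taken as 3 lists by symbol, and their pooled shares had wide intervals. Other translation genes, such as release factors, the poly(A)-binding proteins and the growth kinase genes let-363 and rsks-1, had pooled promoter summits in 11 of 20 (55.0%, 31.5 to 76.9). Subunits of RNA polymerases I and III and their basal factors had them in 5 of 15 (33.3%, 11.8 to 61.6), and other rRNA processing genes in 5 of 12 (41.7%, 15.2 to 72.3). The share of all genes, 23.0%, lies inside the intervals of the polymerase and rRNA processing lists. It lies below the interval of the other translation genes. Thresholded promoter summits numbered 1 of 20, 1 of 15 and 0 of 12 in these lists, against 1.06% of all genes. These counts are too small to set the lists apart from genes at large.

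Among the synthetases, ears-2 was the strongest promoter. Its summit lay 37 bp upstream of the start, with a pooled signal of 76.2 (rank 418), 36.3 in replicate 1 (rank 544) and 36.2 in replicate 2 (rank 628). The entry was near the top of both replicate lists, and the peak, at IV:390285-390724, spans the divergent start region of ears-2 and uncp-18, so the summit falls in the promoter windows of both. Of these starts that of ears-2 is the nearest, and the window printed above holds TGCGCG.

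The signal of vars-1 was 58.1 in the pooled list (rank 841), 26.1 in replicate 1 and 28.0 in replicate 2, with a summit 90 bp upstream of the start. vars-1 encodes a valyl-tRNA synthetase. The arginyl-tRNA synthetase gene rars-2 had 56.6 in the pooled list (rank 912), 43.3 in replicate 1 (rank 332) and 17.7 in replicate 2 (rank 8880). It ranked high in replicate 1 and in the middle of the list in replicate 2, and the summit, 126 bp upstream, lies in the annotated 3' untranslated end of the gene before it, C29H12.2.

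Weaker synthetase promoters matched in both replicates were those of gars-1, for glycine, sars-1, for serine, pars-1, for proline, and tars-1, for threonine. gars-1 had 43.0 in the pooled list, 21.6 in replicate 1 and 20.8 in replicate 2, 75 bp inside the gene. sars-1 had 42.3, 18.8 and 22.2, 292 bp upstream of its start but nearer to that of C47E12.2. pars-1 had 33.0, 12.7 and 19.0, 869 bp upstream, and tars-1 had 32.1, 13.1 and 18.7, 942 bp upstream in a coding exon. In replicate 1 the entries of pars-1 and tars-1 had ranks 20307 and 18936, and the lowest signal of that list was 12.7. The numbering of these genes mostly separates cytosolic enzymes, numbered 1, from mitochondrial ones, numbered 2. Pooled promoter summits were found at 11 of 20 genes numbered 1 and at 3 of 11 numbered 2, those of ears-2, rars-2 and fars-2. Over all genes the share was 23.0%. Matching the replicate lists to each other left 4 of 20 numbered 1 and 2 of 11 numbered 2, against 8.43% of all genes. These counts are small, and a difference between the 2 kinds was not tested.

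The fars-1 gene body held the strongest entry of the whole group, with a pooled signal of 163 (rank 43), 77.6 in replicate 1 and 84.0 in replicate 2, at rank 47 in both. It lay in an intron, 1362 bp downstream of the start, beside the snoRNA gene T08B2.13, and inside the promoter window of mrpl-23, a mitochondrial ribosomal protein gene. snoRNAs guide the chemical modification of ribosomal RNA, and in vertebrates many lie in introns of translation genes. With peaks within 250 bp of a tRNA, snoRNA, snRNA or rRNA gene left out, no member had a thresholded gene body summit. Whether the entry belongs to fars-1, to the snoRNA gene or to mrpl-23 was not tested.

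Members hosted 10 snoRNA genes in 5 genes, all on the strand of the host: 4 in nol-56, 2 in eef-1G, 2 in eif-4A3 and 1 each in iff-2 and fars-1. A thresholded summit lay within 250 bp of 1 of the 10 (10.0%, 0.253 to 44.5), against 63 of all 346 nuclear snoRNA genes (18.2%). Pooled summits lay there at 6 of the 10 (95% interval 26.2 to 87.8%), against 40.5% of all. The snoRNA host with the next strongest pooled entry was eef-1G, the gamma subunit of elongation factor 1, with pooled entries of 48.3 and 43.7 at F17C11.15 and F17C11.14, of which only the latter was matched in both replicates.

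**Figure D2:**
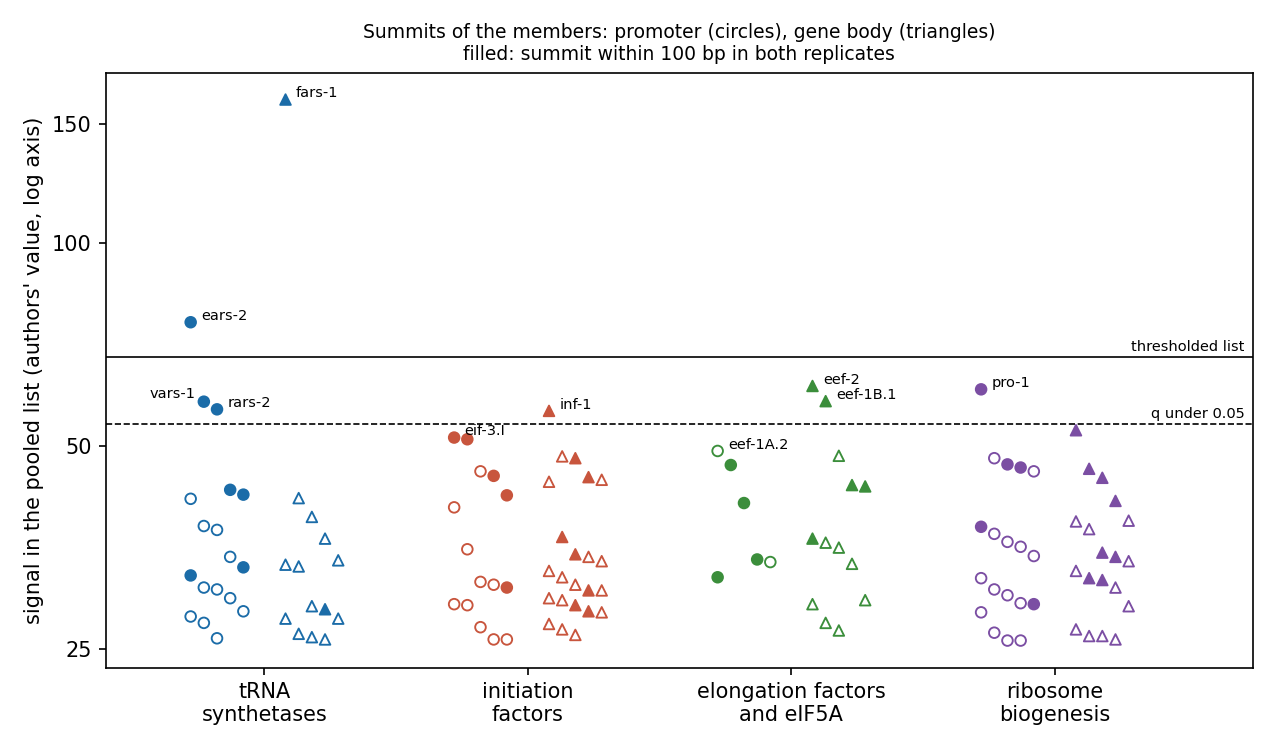
Pooled signal (authors' value, log axis) of each of the 58 promoter summits (circles) and 69 gene body summits (triangles) of the members, by role, with filled marks where both replicates have a summit within 100 bp. The solid line is the lowest thresholded signal (67.7) and the dashed line the lowest pooled signal with q under 0.05 (53.8); fars-1 and ears-2 are above the solid line, and the rest of the group is below it.

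Among the initiation factors no promoter summit reached q under 0.05 (0 of 32 genes, exact interval 0 to 10.9%), against 2.28% of all genes. The share of all genes lies inside that interval, so this count does not set the role apart from genes at large. The strongest promoter summit was at eif-3.I, a subunit of the eIF3 scaffold, with 51.4 in the pooled list (rank 1200), 17.6 in replicate 1 and 24.1 in replicate 2. It lay inside the gene, in an intron and 481 bp upstream of an inner annotated start. With only the outermost start, eif-3.I had no pooled promoter summit. eif-2Bgamma, a subunit of the eIF2 exchange factor, had 51.1, 20.1 and 30.2, and a second summit with 45.1, 14 and 22.7. Both lay within 250 bp of sup-39 and mir-1831, which the annotation types as snRNA genes. eif-3.C had 42.2, 23.0 and 20.6, 298 bp upstream and outside protein-coding genes.

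The eIF4F genes differed from each other. inf-1, the worm eIF4A helicase, had the strongest gene body entry of an initiation factor, with 56.3 in the pooled list (rank 919), 24.1 in replicate 1 and 32.5 in replicate 2. It lay in the 3' untranslated end of inf-1, 143 bp from the start of byn-1, in whose promoter window it also falls. ifg-1, for eIF4G, had no pooled promoter summit. Its pooled gene body entries were of 34.5 and 32.6, the stronger one matched in both replicates. Of the 5 eIF4E genes, ife-1 and ife-5 had pooled promoter summits, ife-3 had summits in the replicate lists only, and ife-2 and ife-4 had no summit in any of the 4 lists. Of the 11 eIF3 genes, 4 had a pooled promoter summit, and eif-3.F, eif-3.H and eif-3.L had no summit in any list. Over all genes, 23.0% had a pooled promoter summit.

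All 5 eEF1 genes and eef-2 had a pooled gene body entry, against 26.6% of all genes. The entries of eef-1A.2, at 29.1 and 27.3, were not matched in both replicates. eef-2, the translocase, had its strongest gene body entry at the 3' end, with 61.3 in the pooled list (rank 726), 22.3 in replicate 1 and 38.6 in replicate 2, and a promoter summit 146 bp inside the gene with 33.9, 18.7 and 17.3. eef-1B.1, an exchange factor of eEF1A, had a gene body entry of 58.2 (rank 839), 33.4 and 22.4 that also lies in the promoter windows of aco-2 and F54H12.5. eef-1B.2 had a promoter summit of 46.8, 26.6 and 18.4, 162 bp inside the gene.

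eef-1A.2, one of the pair of genes for eEF1A, which brings charged tRNAs to the ribosome, had the strongest elongation factor promoter, at 49.1 in the pooled list (rank 1389) and 37.8 in replicate 1 (rank 476). Replicate 2 had no summit within 100 bp, its nearest being 617 bp away. This entry thus rests on 1 replicate. iff-2, for eIF5A, had 41.1, 22.8 and 15.9, 16 bp upstream of its start. The coding sequences of eef-1A.1 and eef-1A.2 are near copies of each other, and how the authors placed reads shared by such copies is not given in the sources used here.

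In the biogenesis group pro-1, a WD-repeat protein of rRNA processing needed for germline development, had the strongest promoter. Its signal was 60.6 in the pooled list (rank 744), 37.1 in replicate 1 (rank 504) and 29.7 in replicate 2 (rank 1233), with the summit 154 bp upstream of the start. It was high in both replicates, and no other promoter window holds it. nol-10 had 46.4, 28.2 and 21.8, 222 bp upstream, in a window shared with cec-5. nst-1, the worm nucleostemin of ribosome assembly, had 37.9, 21.5 and 15.4, but its summit lay 54 bp from the start of the chaperonin gene cct-4.

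lpd-7, the pescadillo homolog of large subunit assembly, had 46.9, 24.2 and 23.4 at a summit 825 bp upstream, with the start of the ribosomal protein gene rpl-9 nearest. ncl-1, a TRIM-NHL protein that limits nucleolar size, held 12 pooled gene body entries, the most of any member, the strongest with 52.7 (rank 1109), 25.7 and 25.4. It is also the longest member, at 18377 bp with 8 annotated starts. Of the 3 genes for the proteins of box C/D snoRNPs, which methylate rRNA, fib-1 (fibrillarin) had no pooled entry. nol-58 had a promoter summit of 47.9, which lay nearer to the start of zip-4, and one of 30.6, 14 bp inside nol-58, and nol-56 had only gene body entries, of 30.8 and 26.1, both at snoRNA genes.

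**Figure D3:**
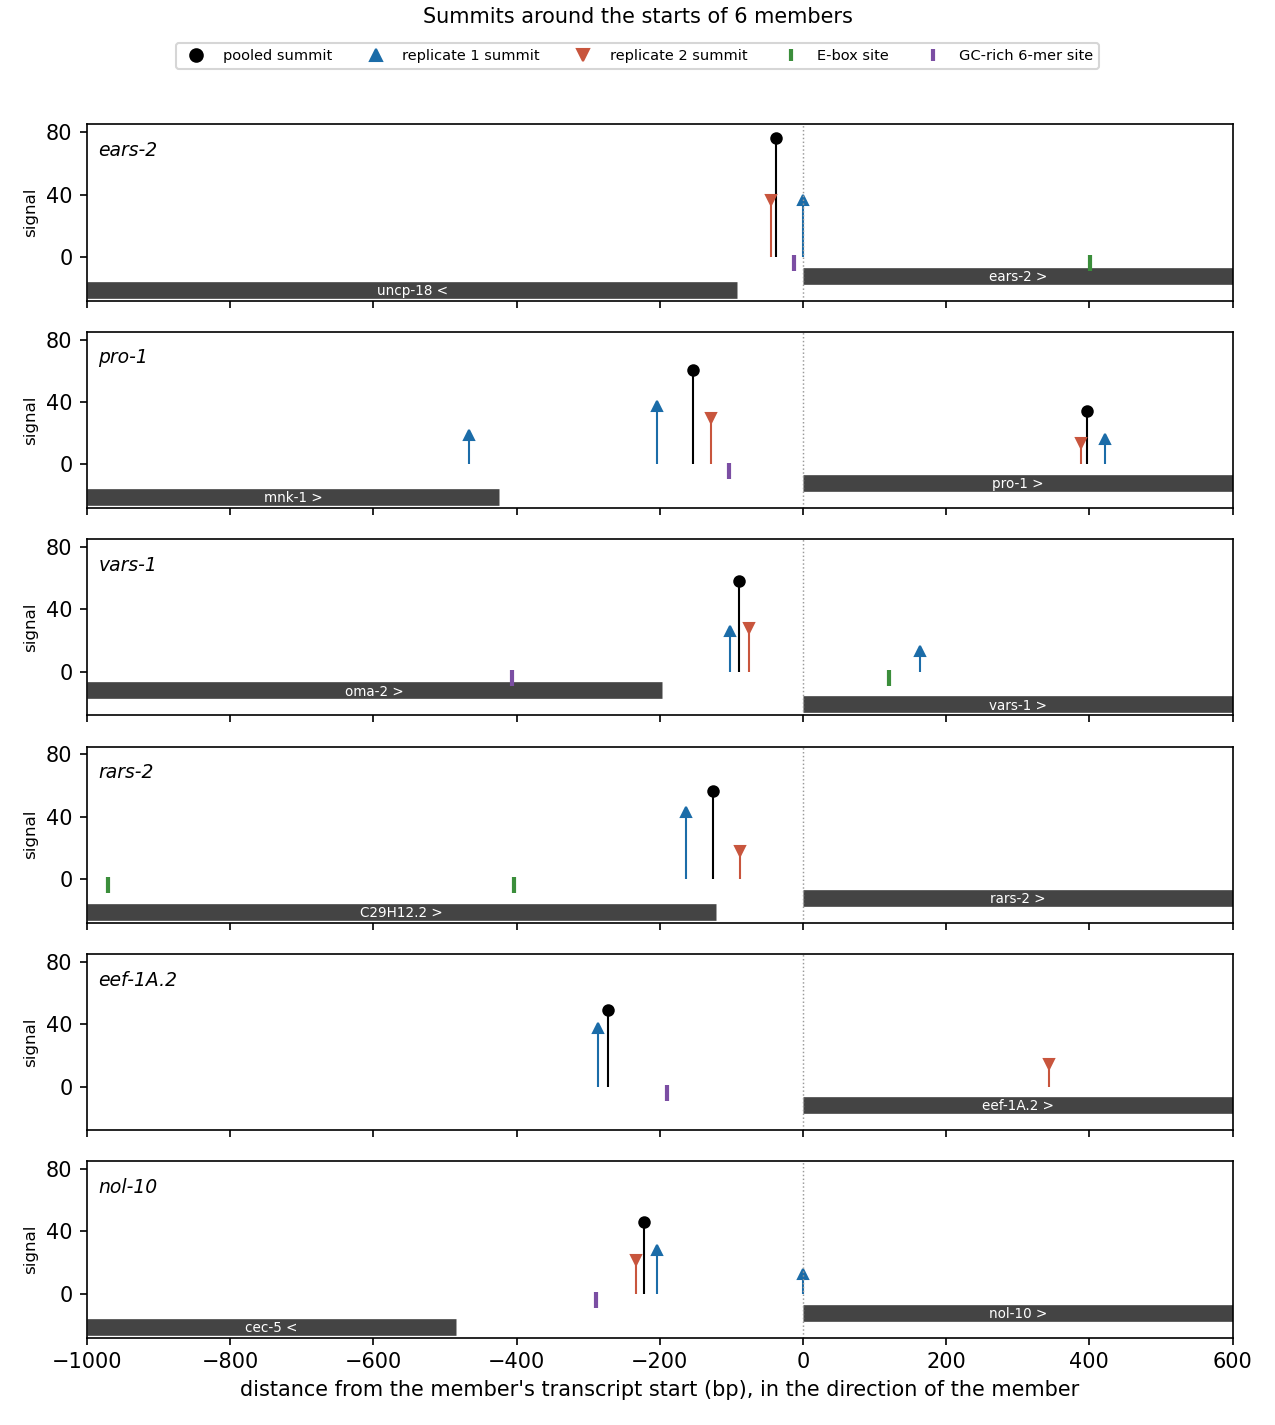
Summits around the starts of 6 members, as distance from the member's transcript start (bp, in the direction of the member) against the authors' signal in the pooled list (black), replicate 1 (blue) and replicate 2 (red), whose heights compare only within a list. Dark bars are protein-coding genes with their direction, and ticks mark E-box (green) and CGCGCA (purple) sites. Summits of ears-2, pro-1, vars-1, rars-2 and nol-10 appear in all 3 lists within 100 bp. That of eef-1A.2 has no replicate 2 mark within 100 bp, and the replicate 2 mark drawn there lies 344 bp inside the gene.

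The 46 members with a pooled promoter summit had 58 such summits, with a median signal of 34.0, against 32.3 over all 4818 promoter summits of the pooled list. Both replicates had a summit within 100 bp of 21 of the 58 (36.2%), against 32.4% of all, and 14 matched replicate 1 only, 20 replicate 2 only and 3 neither. q was under 0.05 at 4 of the 58 (6.90%), against 8.34%. Members had a promoter summit more often than genes at large, while the typical summit, once present, had about the strength and repeatability of other promoter summits. Across the 21 matched summits, Spearman's rho of the replicate signals was 0.32, against 0.41 over 1559, a description across entries of the same pair of samples that were kept for having a match.

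**Figure D4:**
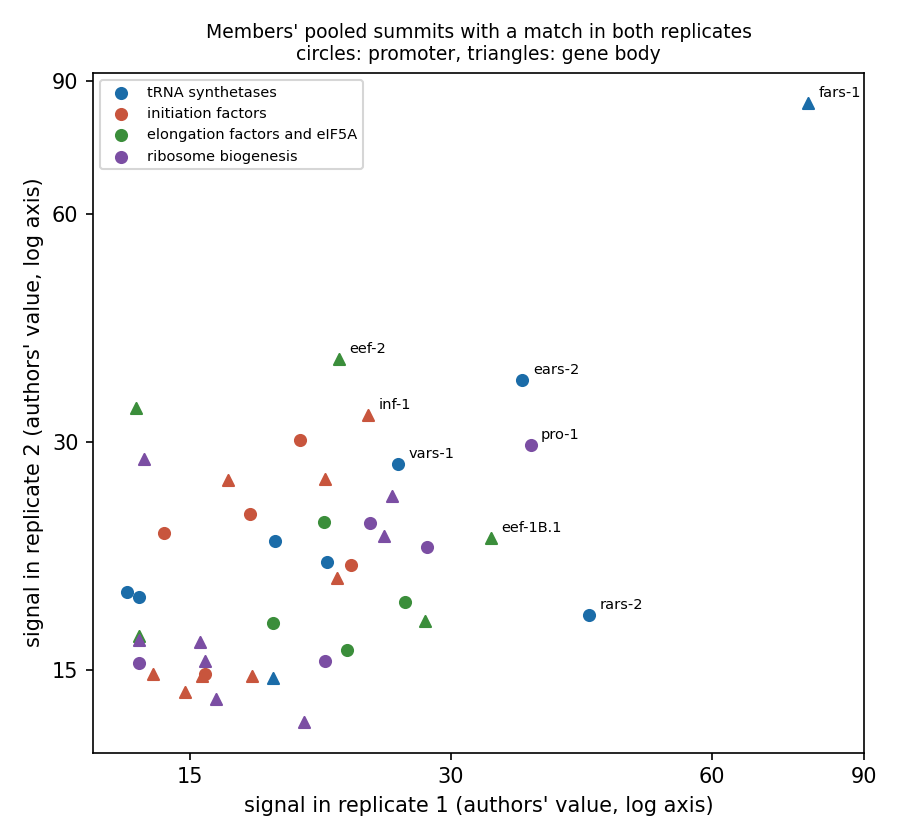
Signal in replicate 1 against replicate 2 (authors' values, log axes) for the members' pooled summits with a match within 100 bp in both, 21 promoter (circles) and 23 gene body (triangles), coloured by role, where each axis is read only for the order within its list. fars-1 is the highest on both axes at 77.6 and 84.0, and rars-2, at 43.3 and 17.7, is second on the axis of replicate 1 and below the middle on that of replicate 2.

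Member promoter summits lay at a median of 263 bp upstream of the member's start (quartiles at 493 and 85 bp upstream), against 287 bp (602 and 38) for all genes. Within 250 bp of the start were 27 of 58 (46.6%), against 45.8%. The members' own start was the nearest protein-coding start at 38 of 58 (65.5%), and 28 of 58 (48.3%) also fell in the promoter window of another gene, against 26.1% of all pairs of gene and summit.

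Members have features that enlarge or share their windows, and their part in the shares was not tested. Annotated starts numbered 2 or more at 39 of 90 members (43.3%), against 26.3% of all genes, and 58 of 90 promoter windows (64.4%) overlapped that of another gene, against 36.1%. Where windows overlapped, pooled promoter summits were found at 31 of 58 members (53.4%, 39.9 to 66.7), against 27.9% of all such genes. Where they did not, they were found at 15 of 32 (46.9%, 29.1 to 65.3), against 20.2%. With each summit given only to the nearest start, 34 members had one (37.8%), against 20.2% of all genes, and with only the outermost start 41 (45.6%), against 20.1%.

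No summit of any list lay in the promoter or gene body of 10 members: ife-2, ife-4, eif-2Bepsilon, eif-3.F, eif-3.H, eif-3.L and the synthetase genes hars-1, iars-1, lars-1 and sars-2. The share of all genes without a summit in any list was not counted, so this number is not read as a trait of the group. In the pooled list alone 22 members had neither kind of summit, 68 had at least 1 and 15 had both, and 41.4% of all genes had at least 1. Members lay on each nuclear chromosome, from 25 on I, 21 on II, 15 each on III and IV and 11 on V to 3 on X.

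For the E-box, the interval of the share near members' summits included the share near all promoter summits. CACGTG lay within 100 bp of 5 of 58 member promoter summits (8.62%, 2.86 to 19.0), against 4.90% of all promoter summits, at ife-1, nol-16, pro-3, rrp-8 and toe-1. Their pooled signals were 40.5, 36.0, 35.4, 34.3 and 29.1, none with q under 0.05, and only that of toe-1 was matched in both replicates. Of 24 E-boxes in the promoter windows of 19 members, over all their starts, 5 had a pooled summit within 100 bp. From 250 bp before to 50 bp after the outermost start, CACGTG was present at 4 of 90 members (4.44%, 1.22 to 11), against 5.85% of all genes. The E-box was also sought in the full window of the outermost start, while summits were counted at any start of the gene. Members with the E-box had a pooled promoter summit in 8 of 14 (57.1%, 28.9 to 82.3), against 25.5% of all genes with it. Members without it had one in 38 of 76 (95% interval 38.3 to 61.7%), against 22.4% of all genes without it.

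CGCGCA, counted on both strands, lay within 100 bp of 8 of 58 member promoter summits (13.8%, 6.15 to 25.4). The share over all promoter summits, 6.62%, lies inside that interval, as it did for the E-box. These 8 were at ears-2, pro-1, eef-1A.2, nol-10, gars-1, eif-3.C, eif-2D and eif-3.B, with pooled signals of 76.2, 60.6, 49.1, 46.4, 43.0, 42.2, 35.1 and 31.4. Of them 7 were among the 29 member summits above the median signal and 1 among the 29 below, and over all promoter summits the shares were 7.68% above and 5.56% below. The promoter sequence itself held CGCGCA more often in members, at 16 of 90 (17.8%, 10.5 to 27.3) from 250 bp before to 50 bp after the outermost start, against 6.08% of all genes. By role these were 8 of 32 initiation factors, 4 of 31 synthetases, 3 of 19 biogenesis genes and 1 of 8 elongation factor and eIF5A genes. The median GC content of these promoters was 33.2% in members and 34.2% in all genes. Summit windows with the 6-mer had a median GC content of 40.5% in members, against 37.8% for all member summit windows.

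CGCGCA was also sought in the full window of the outermost start, while summits were counted at any start of the gene. Members with CGCGCA had a pooled promoter summit in 21 of 32 (65.6%, 46.8 to 81.4), against 29.5% of all genes with it. Those without had one in 25 of 58 (43.1%, 30.2 to 56.8), against 21.6% of all genes without it. The members' intervals overlap. Another 6-mer from the earlier results, CACTGC, lay near 4 of 58 member summits (6.90%), against 6.58%, and in 4 of 90 promoters (4.44%), against 7.19%. A match is a string of letters in a window and was not tested as a binding site.

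**Figure D5:**
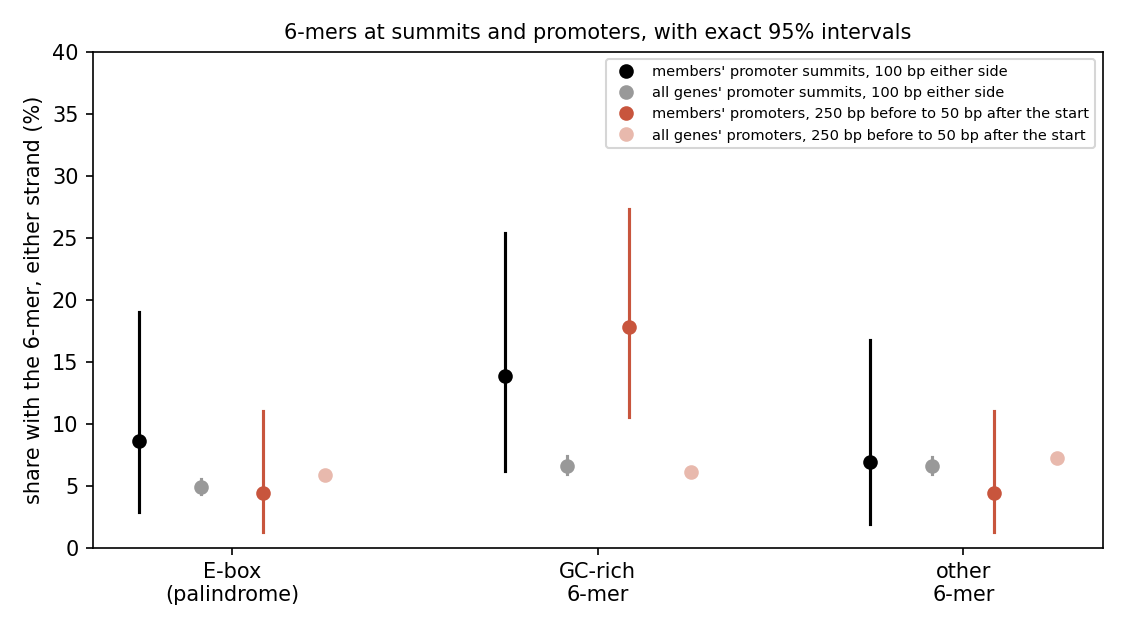
Share (%) of members' promoter summits (black), all promoter summits (grey), members' promoters (red) and all promoters (pink) that hold the E-box CACGTG, the GC-rich 6-mer CGCGCA and the other 6-mer, CACTGC, on either strand, with exact 95% intervals. For CGCGCA the promoter shares stand at 17.8% in members and 6.08% in all genes, and for the E-box at 4.44% and 5.85%.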

How the data were processed

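ChIP-seq peak lists of 2 biological replicates of MXL-1 with a GFP-FLAG tag were used as the authors deposited them on ce11: 1 list per replicate, 1 pooled list and 1 thresholded list. Peak signal is the authors' deposited value, its scale not stated. The deposited −log10 q value gave the limit of q under 0.05, and the deposited summit offset gave each position, counted from 1. The sources used here name no aligner or peak caller. Lists on ce10 were not used here.

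Genes came from Ensembl release 115 (WBcel235), where members were found by symbol, and sequences, promoters included, from the RefSeq genome of the same assembly. Summits were assigned to promoter windows and gene bodies, and summits of different lists within 100 bp counted as matched. Since the pooled list holds background entries, it was read by tiers of strength and repeatability. The assignment was checked on simulated summits. Members, lists, motifs and rules were chosen with earlier results of these data known. Named genes were every member with a thresholded summit, the 15 and 5 members with the strongest promoter and gene body summits found in both replicates, and the strongest promoter of each role; other members are named for a motif, an snoRNA gene, a share or an empty promoter, after their values were seen. Alternatives varied the window, starts, matching distance, strength and replicates. With 1 group there was no test. All steps ran in Python 3.11.15 (pandas 2.3.3, numpy 2.4.6 and scipy 1.17.1; figures with matplotlib 3.10.9).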

Additional observations from a re-analysis of the deposited data

How the results depend on the processing

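Of 44 alternatives, 28 left the count within 1.5 times its value, or the E-box share within its interval, and 16 moved it. The thresholded promoter share of members, 1.11% against 1.06% of all genes, became 0% against 1.10% without replicate 1 and 0% against 0.506% above the list's median signal. The thresholded gene body share, 1.11% against 1.05%, became 1.11% against 1.23% with the promoter window included and 0% against 0.406% without peaks at small RNA genes. The pooled and matched shares of members were above those of all genes under each alternative run. The single thresholded promoter became 3 with a window from 2000 bp upstream to 500 bp downstream (eif-3.G and nars-1 added), against 1.90% of all genes. It became 2 with any base of the peak, against 1.36% of all genes, and 0 above the list's median signal. With only the strongest peaks of 1 replicate, it ranged from 0 (without replicate 1) to 4 (without replicate 2, where eef-1A.2, pro-1 and rars-2 joined ears-2). The shares of all genes were then 1.10% and 1.17%. The thresholded gene body count fell to 0 without peaks at small RNA genes and was 2 without either replicate, with eef-2 or eef-1G beside fars-1. All genes stood at 1.08% without replicate 1 and 1.06% without replicate 2. Pooled promoters (46) came to 20 when matched in both replicates and 4 with q under 0.05, against 8.60% and 2.28% of all genes. Pooled gene bodies (37) came to 24 above the median signal, 18 when matched and 4 with q under 0.05, against 14.6%, 9.79% and 2.00% of all genes. The q limits and the matched gene bodies were added after the data had been seen. Promoters matched between replicates (18, against 8.43% of all genes) numbered 28 with the wider window, 11 for matches within 50 bp and 28 within 250 bp. The shares of all genes moved too, to 14%, 5.58% and 11.4% in that order. The cause of these moves was not tested. No paired analysis was possible because there is 1 group. Counts in the thresholded list are too small to set members apart from other genes, and depth is unknown.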
